A study of Mus musculus with 12 samples.

Results

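The suppressor of cytokine signalling (SOCS) family was followed through its 8 genes, Cish and Socs1 to Socs7, among 19938 named genes measured on 12 whole-transcript arrays. Members were taken by symbol from the platform annotation, and each gene was read from the row that was brightest on average over the arrays. The 8 genes had 12 rows, and the remaining 4 are described after the comparisons. The RNA came from CD8+CD28low regulatory T cells of C57Bl/6 mice, either wild type (WT) or deficient in AIRE (KO), the regulator that makes thymic epithelium display tissue antigens. Native cells were freshly isolated, and activated cells came from 96h of culture that paired an anti CD3 antibody with allogenic antigen-presenting cells (APC). Native WT, native KO, activated WT and activated KO each held 3 arrays, titled biological replicates 1 to 3. The number of mice per array, the allele behind the deficiency and the removal of APC before lysis are not stated in the labels, so p-values measure the spread between these arrays, which may in part be technical.

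SOCS proteins are feedback inhibitors of the JAK-STAT pathway. A cytokine receptor activates Janus kinases, which phosphorylate STAT factors, and the STATs switch on SOCS genes whose products then dampen the receptor. Each member carries an SH2 domain that binds phosphotyrosine and a SOCS box that recruits elongins and a cullin ubiquitin ligase, and SOCS1 and SOCS3 can also block the kinases directly. In T cells CISH and SOCS2 are known as products of STAT5 signalling downstream of interleukin 2, SOCS1 restrains interferon gamma and the common gamma chain cytokines, and SOCS3 binds gp130 and restrains interleukin 6 and its relatives.

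Promoter windows of 300 bases, 250 before to 50 after the annotated start, were taken from RefSeq (GRCm38.p6) for the 4 members listed there, Cish, Socs1, Socs3 and Socs4. They are shown because 3 of these genes changed on activation and 1 did not. The letters searched on both strands were TTCNNNGAA and the same with 4 free bases between TTC and GAA, the core of STAT binding sequences, and GAAA, 2 free bases and GAAA, a repeat found in interferon response elements. The GAAA repeat was added after the Socs1 window had been read. Capitals mark the matches in the stretches below, each written 5′ to 3′ on the strand of its gene.
Cish, chr9:107296659-107296688, plus strand, bases 1 to 30 from the start: TTCCTGGAAagTTCTTGGAAatctgtcaaa
Socs1, chr16:10785587-10785686, minus strand, bases -150 to -51: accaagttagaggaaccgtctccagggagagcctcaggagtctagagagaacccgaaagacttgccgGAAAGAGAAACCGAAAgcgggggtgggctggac
Socs3, chr11:117969447-117969546, minus strand, bases -180 to -81: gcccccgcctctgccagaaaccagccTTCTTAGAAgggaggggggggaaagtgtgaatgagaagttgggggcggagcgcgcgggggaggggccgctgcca
The start of the Socs3 window lies 970 bases inside the gene's span in RefSeq, while those of Cish and Socs1 are the outer end of theirs. Cish held 2 matches to TTCNNNGAA just past the start, at bases 1 to 9 and 12 to 20. Socs3 held 1 match, at bases -154 to -146. Socs1 held 2 matches to the GAAA repeat that overlap each other, at bases -83 to -74 and -77 to -68, and Socs4 held none of the 3 motifs. Of 32851 promoter windows of the same length, 8.3% held TTCNNNGAA, 6.95% held the form with 4 free bases and 3.44% held the GAAA repeat. These are descriptions of the letters and were not set against binding data.

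Levels are deposited log2 values, on which a difference of 1 is a doubling. The background level of an array was the 95th percentile of its 1027 olfactory receptor genes, and a group counted as at background for a gene when none of its 3 arrays exceeded it. That level was 6.12 to 6.72 on 11 arrays and 7.31 on activated KO array 3. The latter array also had the narrowest spread of values (interquartile range 2.19, against 2.45 to 2.89). Aire itself lay between 5.55 and 5.92, under background on every array, and could not check the genotype labels. Xist, transcribed from the silenced X chromosome of females, was at 5.26 and 4.99 on native and activated KO array 1 and at 9.34 to 11.47 elsewhere. The T cell genes Cd3d, Cd3e, Cd3g, Cd8a, Cd8b1 and Cd28 were above background in every group (list means per array 10.78 to 12.14), while Cd4 and Cd40lg were at background in all 4. Cd28 RNA, in cells labelled CD28low, had means of 11.50 and 11.53 in native WT and KO cells and 10.97 and 10.74 in activated ones. Cd8a was called lower on activation in KO cells (-1.12 ± 0.27) and not in WT cells (-0.65 ± 0.27). The 6 neutrophil markers had list means per array from 5.53 to 6.94 in native WT cells and from 6.30 to 8.81 in native KO cells, and all 6 were at background in both activated groups. Of 7 macrophage and dendritic cell markers, 5 were at background in both native groups, 7 in activated WT and 6 in activated KO cells. The 4 NK cell markers were above background in both native groups (list means per array 6.56 to 7.96), and of these Ncr1 and Klra8 were at background in both activated groups. Klra8 was called lower on activation in both genotypes and Ncr1 in KO cells. The B cell gene Cd79b differed by -0.53 ± 0.17 in WT and -0.92 ± 0.17 in KO cells and was called in both, while Ms4a1 and Pax5 were at background in all 4 groups. Alas2, an erythroid gene, was at 6.64 to 8.42 on native arrays and at background on every activated array (5.38 to 5.72), and was called lower in both genotypes. The part of these cells in the activation differences below was not tested.

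**Figure D1:**
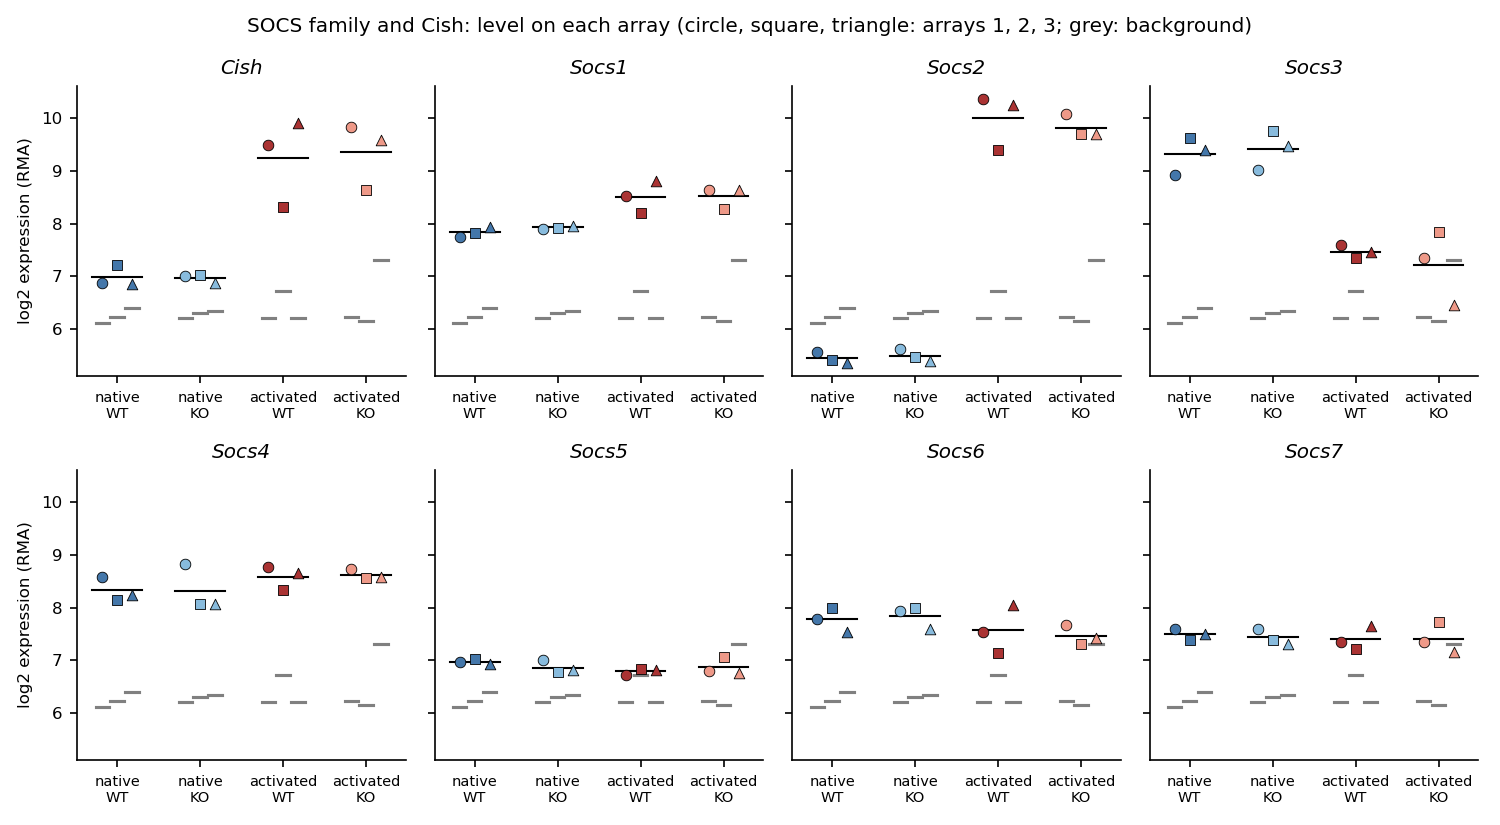
Log2 level of the 8 genes on each array (circle, square and triangle for arrays 1, 2 and 3), with the group mean as a black line and the array's background level as a grey dash. Cish, Socs1 and Socs2 lie higher and Socs3 lower in both activated groups, with no overlap, while the native KO and WT points overlap for every gene shown.

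The first comparison asked how 96h of stimulation changed the family in each genotype. Cish, Socs1 and Socs2 rose and Socs3 fell, in WT and in KO cells alike, while Socs4, Socs5, Socs6 and Socs7 did not pass the test. In WT cells 4 of the 8 members were called at an adjusted p under 0.05 (limma, adjusted over all 19938 genes), 3 higher and 1 lower. Over all genes 20.6% were called there, 9.72% higher and 10.9% lower. At an unadjusted p under 0.05 the members' count was 4 in each genotype too, against 30.4% of all genes in WT and 29.8% in KO cells. The KO cells gave the same 4 genes with the same directions, where 20.1% of all genes were called, 8.72% higher and 11.4% lower. Of all 19938 genes, 8578 were at background in all 4 groups, against 0 of the 8 members. The shares over all genes, also those set beside the lists below, thus include many genes without signal. Activated and native arrays did not overlap for 5 members in WT cells, against 41% of all genes, and for 4 in KO cells, against 30.9%. The RNA is from bulk cells, so the number of cells of a type and the RNA per cell cannot be told apart. The median difference of the 8 members was 0.09 in WT and 0.15 in KO cells, beside -0.02 and 0.02 over all genes.

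Cish, on chromosome 9 (107296659 to 107302784, GRCm38.p6), encodes the founding member of the family. Its level was 6.88, 7.22 and 6.86 on native WT arrays 1 to 3 and 9.50, 8.31 and 9.91 on activated WT arrays. In KO cells it was 7.002, 7.02 and 6.89 before and 9.84, 8.64 and 9.59 after activation. Every activated array lay above every native array, and array 2 was the lowest activated array in both genotypes. The difference was 2.25 ± 0.37 (SE, n = 3 per group) in WT cells, a 4.77-fold rise (adjusted p = 0.00116), and 2.39 ± 0.37 in KO cells, a 5.24-fold rise (adjusted p = 0.000831). Both calls held in all 23 alternatives, with differences of 1.92 to 2.72 in WT and 2.15 to 2.75 in KO cells when single arrays were left out.

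Socs2, on chromosome 10 (95383903 to 95417321), encodes a regulator best known for limiting growth hormone signalling. It was at background on all 6 native arrays, where WT cells gave 5.57, 5.42 and 5.36 and KO cells gave 5.62, 5.48 and 5.40. After activation WT cells gave 10.36, 9.39 and 10.24 and KO cells gave 10.07, 9.69 and 9.69. The native arrays thus give no level for Socs2, and the rise is a lower bound. Taken from the background level of the native arrays, it was at least 13.4-fold in WT and at least 11.5-fold in KO cells for this row. Of the 10 rows nearest to it in number, 0 were named for a gene on chromosome 10. The bounds therefore hold for this row and are not a firm floor for Socs2, as described with the further rows below. The fitted differences, whose native side is background, were 4.54 ± 0.22 (SE, n = 3 per group, adjusted p = 1.1e-07) and 4.32 ± 0.22 (adjusted p = 2.09e-07). A second row that the annotation also names Socs2 rose by 1.96 ± 0.14 in WT and 1.83 ± 0.14 in KO cells, also from native arrays at background.

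Socs1, on chromosome 16 (10783808 to 10785536), encodes the inhibitor of interferon gamma and common gamma chain signalling. In WT cells its level was 7.74, 7.82 and 7.94 before and 8.53, 8.20 and 8.81 after activation. In KO cells it was 7.90, 7.93 and 7.96 before and 8.63, 8.29 and 8.65 after. The groups did not overlap, but the shift was the smallest of the 4 called. It was 0.68 ± 0.15 (SE, n = 3 per group) or 1.60-fold in WT cells (adjusted p = 0.008) and 0.59 ± 0.15 or 1.51-fold in KO cells (adjusted p = 0.0175). The call in KO cells was lost without native KO array 1 (adjusted p = 0.0586), native KO array 2 (0.0555) or activated KO array 1 (0.0635), and its adjusted p ran from 0.00118 to 0.152 over all 23 alternatives, the highest without both KO array 1 samples, where the call was lost as well. In WT cells it held in all 23.

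Socs3, on chromosome 11 (117966079 to 117970336), encodes the inhibitor that acts at gp130. It moved the other way. Native WT levels were 8.92, 9.62 and 9.40, and native KO levels were 9.02, 9.76 and 9.48. Activated WT levels were 7.60, 7.35 and 7.47, and activated KO levels were 7.36, 7.85 and 6.46. All 6 activated arrays lay below all 6 native ones, and the value on activated KO array 3 lay under that array's background level of 7.31. The difference was -1.84 ± 0.31 (SE, n = 3 per group) in WT cells, a 3.59-fold fall (adjusted p = 0.00132), and -2.20 ± 0.31 in KO cells, a 4.59-fold fall (adjusted p = 0.000427). Without activated KO array 3 the fall in KO cells was smaller, at -1.82, and it was called in all 23 alternatives in both genotypes. The 6 neutrophil markers were at background on the activated arrays too, though between native and activated cells 0 of them were called in WT and 3 in KO cells. Among native arrays they were highest on KO array 1 (list mean 8.81) and lowest on WT array 3 (5.53), while Socs3 was at 9.02 and 9.40 there. Their part in the Socs3 difference was not tested.

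**Figure D2:**
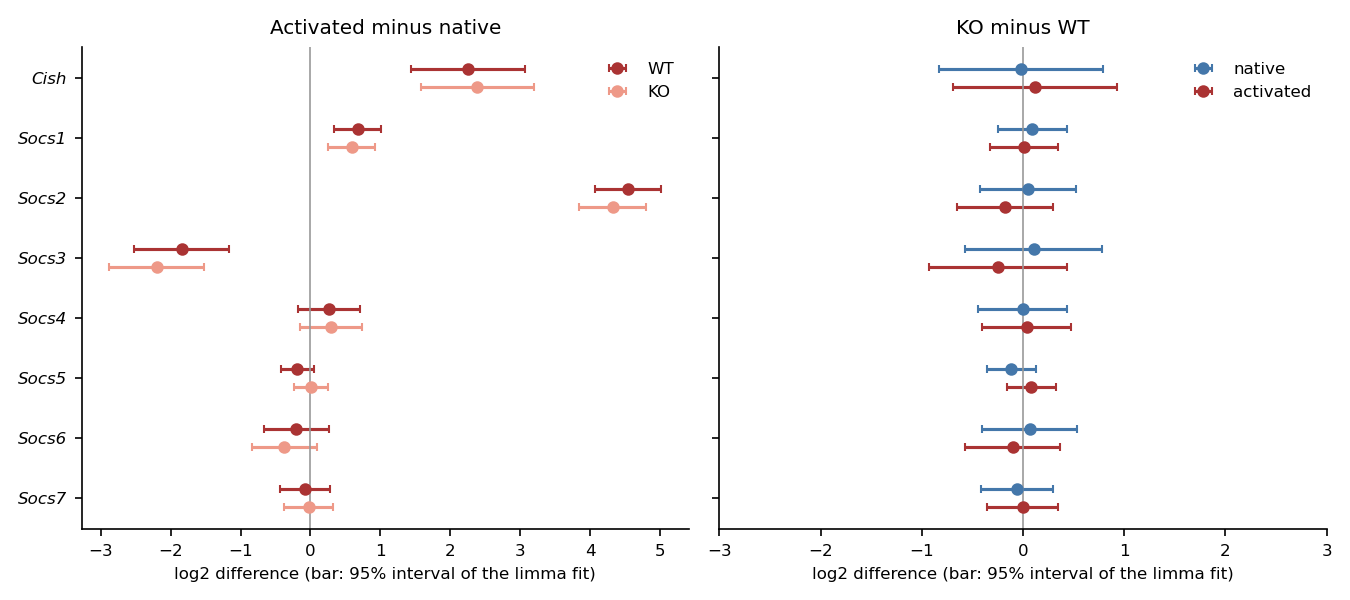
Log2 differences with 95% intervals (bars) of the limma fit for the 8 genes, activated minus native in each genotype (left) and KO minus WT in each state (right, on its own axis). On the left the intervals of Cish, Socs1, Socs2 and Socs3 lie away from 0 in both genotypes; on the right all 16 intervals include 0.

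The remaining 4 genes, whose products are larger and less studied in T cells, moved little. Socs4 ranged from 8.08 to 8.82 in native and from 8.33 to 8.77 in activated cells. It differed by 0.26 ± 0.20 (95% interval -0.18 to 0.70) in WT and by 0.30 ± 0.20 (-0.14 to 0.74) in KO cells. Without native KO array 1, which held its highest value, the KO difference was 0.55 and was called (adjusted p = 0.0492). Socs5, linked to signalling by the epidermal growth factor and interleukin 4 receptors, ranged from 6.77 to 7.03 in native and from 6.72 to 7.06 in activated cells. Its difference was -0.19 ± 0.11 (-0.43 to 0.05) in WT, where the activated arrays all lay under the native ones, and 0.01 ± 0.11 (-0.23 to 0.25) in KO cells. Socs6 ranged from 7.55 to 8.004 in native and from 7.14 to 8.04 in activated cells, with differences of -0.21 ± 0.21 (-0.67 to 0.26) and -0.37 ± 0.21 (-0.84 to 0.09). Socs7 ranged from 7.32 to 7.60 in native and from 7.16 to 7.73 in activated cells, with differences of -0.08 ± 0.16 (-0.43 to 0.27) and -0.02 ± 0.16 (-0.38 to 0.33). On activated KO array 3 Socs5 and Socs7 lay under the background level.

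**Figure D3:**
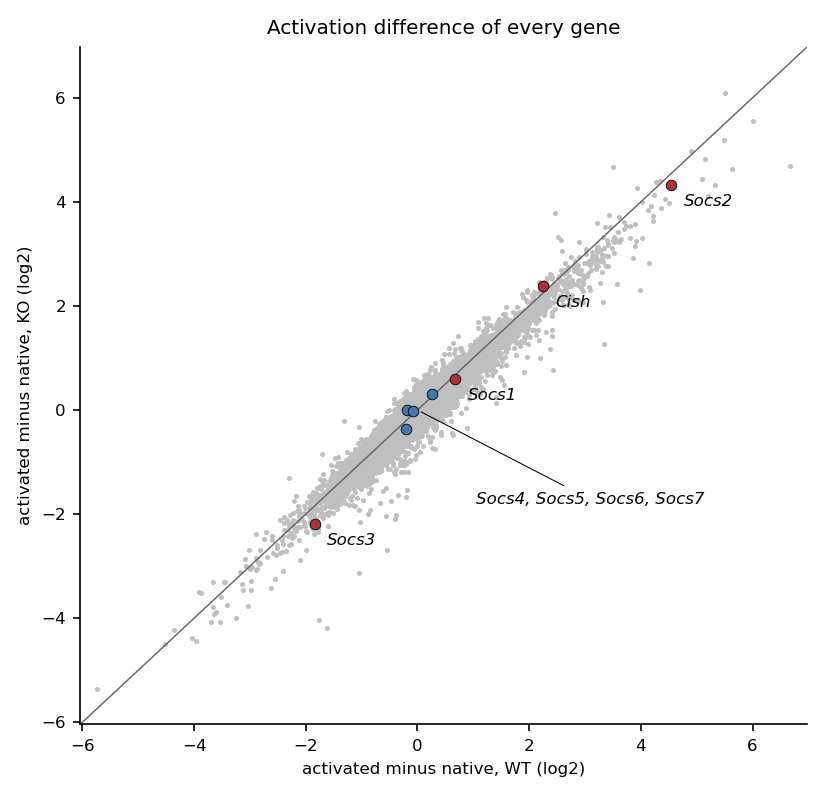
Activated minus native log2 difference of each of 19938 genes in WT (x axis) and KO cells (y axis), with the line of equal difference; red marks the 4 called family members and blue the other 4. Socs2 and Cish lie at the upper end (4.54 and 2.25 in WT), Socs3 at the lower end (-1.84) and the blue points near 0.

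Among WT differences of all genes, Cish stood at the 98.7th percentile, Socs1 at the 91.8th and Socs3 at the 0.68th. In KO cells they stood at the 99.1st, 91.4th and 0.46th. These places describe size and carry no test.

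The next comparison asked whether the KO cells differed from WT cells in the same state. Native cells gave 0 of 8 members past the threshold in limma, and 0 at an unadjusted p under 0.05. Over all genes 0 were called (0%), and 131 (0.657%) had an unadjusted p under 0.05. Differences ran from -0.11 ± 0.11 for Socs5 to 0.11 ± 0.31 for Socs3, and all 8 genes had overlapping groups, against 7.04% of all genes that did not overlap. The 95% interval was widest for Cish, -0.83 to 0.79, and for Socs3, -0.57 to 0.79. It was -0.24 to 0.43 for Socs1 and -0.35 to 0.13 for Socs5. The fit shares each gene's spread over all 4 groups, so these widths also reflect the activated arrays. For Cish the standard deviation was 0.205 and 0.0723 in native WT and KO cells, against 0.834 and 0.632 in activated ones. Its interval thus does not show how closely its native arrays lay. Socs2 was at background in both native groups, so its difference gives no size. Native KO and WT arrays of the same number varied together to differing degrees (r = 0.58, 0.396 and 0.157 for numbers 1 to 3) and were read as pairs. KO minus WT within pairs 1 to 3 was 0.15, 0.11 and 0.02 for Socs1 and 0.10, 0.14 and 0.08 for Socs3, higher in 3 of 3 pairs for both. Socs2, at background on these arrays, was also higher in 3 of 3. Cish, Socs6 and Socs7 were higher in 2 of 3, and Socs4 and Socs5 in 1 of 3. The share of all genes higher in 3 of 3 pairs was not computed, so these counts only describe the arrays. With the pair number as a block in the native arrays alone, 14 of all genes and 0 members were called, with adjusted p = 0.95 for Socs1 and 0.939 for Socs3 (limma).

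Activated cells gave 0 of 8 called in limma and 0 at an unadjusted p under 0.05, where 0% of all genes were called and 0.436% had such a p. Cish differed by 0.12 ± 0.37 (SE, n = 3 per group; 95% interval -0.70 to 0.93) and Socs1 by 0.01 ± 0.15 (-0.33 to 0.34). Socs2 differed by -0.18 ± 0.22 (-0.65 to 0.30) and Socs3 by -0.25 ± 0.31 (-0.93 to 0.43). The sign of the Socs3 difference rests on activated KO array 3, without which it was 0.13. The other 4 genes lay between -0.10 for Socs6 and 0.08 for Socs5, and KO and WT arrays overlapped for all 8, against 1.75% of genes without overlap.

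A test of the difference itself asked whether the activation response depended on genotype. It called 0 of 8 members and 0% of all genes (limma), with 0 members and 0.431% of all genes at an unadjusted p under 0.05. Estimates included -0.36 ± 0.44 for Socs3 and 0.20 ± 0.16 for Socs5, and that of Socs2 gives no size, since its native groups are at background. For Cish the 95% interval was -1.01 to 1.28, for Socs1 -0.56 to 0.39 and for Socs3 -1.31 to 0.60. With 3 arrays per group, differences in response inside these intervals were not excluded. Without both KO array 1 samples, on which Xist was low, the interaction also called 0 members.

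**Figure D4:**
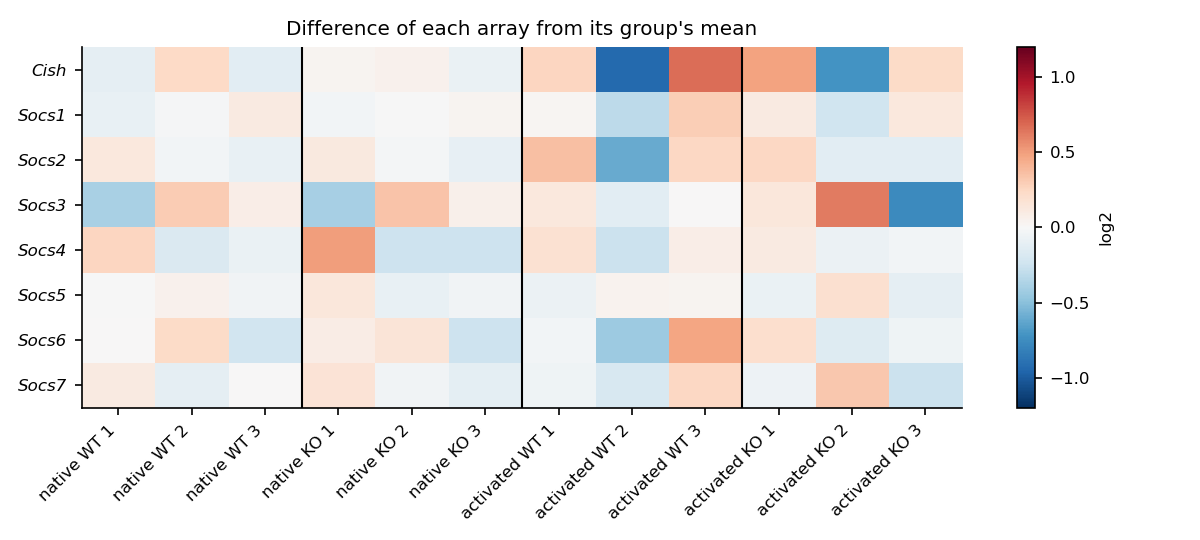
Difference of each array from the mean of its group, in log2 units by colour, for the 8 genes (rows) and 12 arrays (columns). Cish and Socs1 are low on array 2 of both activated groups, and Socs3 is high on activated KO array 2 and low on activated KO array 3.

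With the group means subtracted, Cish and Socs1 correlated at Pearson's r = 0.904 over the 12 arrays, Cish and Socs6 at 0.824, Cish and Socs2 at 0.796 and Socs2 and Socs6 at 0.71. Socs3 gave -0.163 with Cish and 0.0434 with Socs2. These 12 points share the arrays and their scaling, and the values are descriptions. The standard deviation of Cish was 0.834 and 0.632 in activated WT and KO cells, against 0.205 and 0.0723 in native ones. Array 2 was low for Cish in both activated groups. Background was raised on activated WT array 2 (6.72) but was the lowest of the activated arrays on activated KO array 2 (6.16). The 6 T cell markers were highest on these same arrays, at a list mean of 11.99 on each, against 10.78 to 11.73 on the other activated arrays.

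Genes outside the family whose pattern was most like that of a member were taken as the 3 with the highest Pearson's r over the 12 arrays among 9485 genes above background on average. For Cish these were Xbp1 (0.993), Fam20a (0.992) and Nek6 (0.991). For Socs1 they were Lta (0.985), Mars1 (0.98) and Tgfb1 (0.978), and for Socs2 Nsd2 (0.999), Pole (0.998) and Hells (0.998). Socs3 ran closest to 4632427E13Rik (0.994), Per1 (0.993) and Rab4a (0.993). These values include the contrast between native and activated arrays. With group means subtracted, on the same arrays, Cish was closest to Xbp1 (0.982), followed by Hbegf (0.98) and Sesn2 (0.975). Cish deviated most on array 2 of activated WT (-0.93) and activated KO cells (-0.72), so these values rest largely on few arrays. All genes named here were picked as the highest of 9485, and their r carries no test. Socs3 was then closest to Nfkbia (0.976), the NF-kappaB inhibitor, Kdm6b (0.973) and Usp22 (0.973), Socs1 to Styx (0.973), Eif6 (0.97) and Eps8 (0.953), and Socs2 to Cops5 (0.991), Tada2b (0.984) and Pum3 (0.98). For Socs4 to Socs7, whose levels moved little, the highest r was 0.947 with Trappc13, 0.871 with Zbtb14, 0.936 with Eif5b and 0.923 with Alkbh2, in that order.

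The receptors upstream of the family changed in both directions. Of 24 measured chains of JAK-STAT cytokine receptors, 5 rose and 5 fell in WT cells (median -0.04) and 5 rose and 7 fell in KO cells (median -0.09). These are 41.7% and 50% of the list, beside 20.6% and 20.1% of all genes. Il2ra, the high-affinity chain of the interleukin 2 receptor, rose by 6.01 ± 0.20 (SE, n = 3 per group) in WT and 5.55 ± 0.20 in KO cells. Ifngr2, the signalling chain of the interferon gamma receptor, fell in both, with differences of -3.92 ± 0.34 and -3.49 ± 0.34. Its activated means, 6.59 in WT and 6.80 in KO cells, lay within the range of the activated arrays' background levels (6.16 to 7.31). The size of the fall is therefore limited by background. The interleukin 6 receptor chains, chosen here after their values were seen because SOCS3 acts at gp130, also fell. Il6ra went from 10.13 to 6.98 in WT and from 9.98 to 6.63 in KO cells, and Il6st, which encodes gp130, from 11.08 to 9.20 and from 11.05 to 8.78, all group means of 3 arrays (adjusted p from 8.01e-06 to 0.00591). The activated means of Il6ra lay in the same background range as those of Ifngr2. Il2rg was not analysed here.

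Of 3 measured Janus kinases, 2 fell in WT and 1 in KO cells (medians -0.71 and -0.55), among them Jak1 with -0.75 ± 0.16 and -0.79 ± 0.16. Of 6 STAT genes, Stat5a and Stat6 fell in both genotypes and 0 rose (medians -0.28 and -0.31), or 33.3% called, beside 20.6% of all genes in WT and 20.1% in KO cells. Stat5a, which encodes a main carrier of interleukin 2 signals, differed by -0.53 ± 0.10 in WT and -0.72 ± 0.10 in KO cells, and Stat6, the interleukin 4 factor, by -0.53 ± 0.14 and -0.44 ± 0.14. Stat3 differed by -0.04 ± 0.18 and -0.09 ± 0.18. Jak3 was not analysed here.

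Of 19 measured cytokines that signal through the pathway, 13 were at background in all 4 groups. In WT cells 3 rose and in KO cells 3 rose and 1 fell, with medians of 0.02 and 0.08. These are 15.8% and 21.1% of the list, near the 20.6% and 20.1% over all genes. Il10, an anti-inflammatory cytokine, rose at least 2.07-fold from background in WT cells (adjusted p = 0.0416) and was not called in KO cells (adjusted p = 0.202). Lif, of the interleukin 6 family, rose at least 1.77-fold from background in KO cells and missed the threshold in WT cells (adjusted p = 0.0501). The other called rises, those of Csf2 and Osm, were called in both genotypes. Il2, the 1 fall in KO cells, was at background in both states, so its difference gives no size. Whether these responses differ between genotypes was part of the interaction test, which called none of them.

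**Figure D5:**
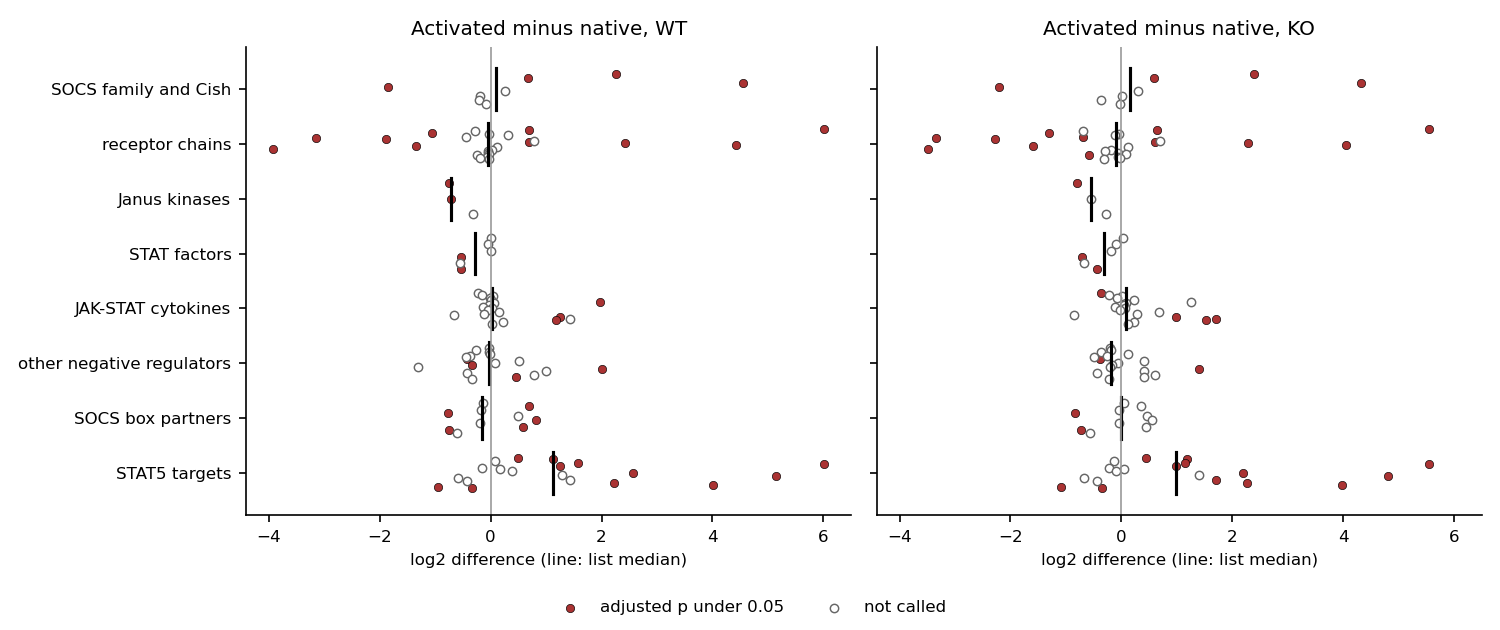
Activated minus native log2 difference of each measured gene in the family and in 7 lists of the surrounding pathway, WT left and KO right; filled points are called at an adjusted p under 0.05 and black lines are list medians. The STAT5 targets have the highest median (1.12 in WT and 0.98 in KO cells), while receptor chains spread from below -3 to above 5.

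Reported targets of STAT5 other than Cish and Socs2 were called in 11 of 19 cases in WT cells, 9 higher and 2 lower, and in 12 of 19 in KO cells, 10 higher and 2 lower. These are 57.9% and 63.2% of the list, beside 20.6% and 20.1% of all genes. Of the 19 targets 0 were at background in all 4 groups, against 8578 of all 19938 genes, so these shares are not of like genes. Their median was 1.12 in WT and 0.98 in KO cells. The list shares Il2ra, Osm, Lif and Dusp5 with other lists here. Mcl1, a survival factor of the BCL2 family, had its largest called fall, with -0.95 ± 0.19 and -1.08 ± 0.19.

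A list of 10 genes covered the elongins, cullins and partners of cullins, not all of which the SOCS box recruits. In WT cells 3 rose and 2 fell, and in KO cells 0 rose and 2 fell (medians -0.16 and 0.0023). These are 50% of the list in WT cells, beside 20.6% of all genes, and 20% in KO cells, at the 20.1% over all genes. Rbx1, a ring finger partner of several cullins, rose by 0.82 ± 0.19 in WT cells and missed the threshold in KO cells, at 0.55 ± 0.19 (adjusted p = 0.072). Rnf7, the ring finger partner of cullin 5, fell in both, with -0.77 ± 0.22 and -0.83 ± 0.22. Among 17 other negative regulators of cytokine and receptor signalling, 2 rose and 2 fell in WT cells and 1 rose and 1 fell in KO cells (medians -0.03 and -0.18). At 23.5% and 11.8% of the list, these counts are near or below the 20.6% and 20.1% over all genes. Ptprj, a receptor phosphatase, rose by 2.01 ± 0.38 and 1.40 ± 0.38, and Pias2, an inhibitor of activated STATs, fell with -0.42 ± 0.11 and -0.38 ± 0.11. In none of these 7 lists was a gene called between KO and WT cells in either state (limma). At an unadjusted p under 0.05 the lists held 2 genes in native cells, Csf2rb and Il2ra, and 0 in activated cells. Among them the smallest unadjusted p belonged to Csf2rb in native cells, at least 1.13-fold higher in KO than in WT cells, which were at background, and to Stat5a in activated cells, at -0.20 ± 0.10.

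Socs2, Socs3 and Socs6 had further rows. The second Socs2 row was at 5.60 to 5.86 on the 6 native arrays, all under background, and at 7.34 to 7.86 on the activated arrays, below the 9.39 to 10.36 of the row used above. Row numbers on this platform run along chromosomes: 94.3% of consecutive named rows belonged to the same chromosome. Of the 10 rows nearest in number to the brighter Socs2 row, 0 were named for a gene on chromosome 10, where Socs2 lies, and 9 for genes on chromosome 12. For the dimmer row 9 of 10 neighbours were on chromosome 10. No source used here gives the place of the probes, so the size of the Socs2 rise is uncertain between these rows. With the rows averaged the fitted difference was 3.25 in WT and 3.07 in KO cells. The second Socs3 row was dimmer (6.01 to 7.24). It differed by -0.49 ± 0.18 in WT cells (adjusted p = 0.0873 in limma over every row) and by -0.57 ± 0.18 in KO cells (adjusted p = 0.0499). This row lay under background on every activated array (6.01 to 6.48), which limits the size of its differences. With the Socs3 rows averaged the fall was called in both genotypes and smaller, at -1.17 and -1.38. That average includes the row at background. Of the other 2 Socs6 rows, 1 had all 10 neighbours on chromosome 7, differed by -0.45 ± 0.25 in WT and -0.17 ± 0.25 in KO cells and was not called. The other lay under background on every array, between 5.36 and 5.78.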

How the data were processed

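The table of log2 expression values, 35556 rows by 12 arrays, was deposited by the authors. Per the submitters' processing notes the tools were Partek and RMA, and no source used here gives versions or options. RMA compresses differences near background, and arrays carry no read depth; 3 arrays per group limit the precision. Rows were named through the platform annotation, with current symbols looked up by Entrez number in the GRCm38.p6 gene table (21698 of 21789 rows with 1 symbol matched; 1621 had several and 12146 none), and the brightest row per gene was kept. Group means were fitted over all arrays with limma 3.58.1 in R 4.3.3 (lmFit, eBayes) and p-values adjusted by Benjamini-Hochberg over 19938 genes; ± gives the SE of that fit. The fit was run on simulated data with known differences and independent noise, without shared array effects or a background floor. That run checks the code and not the design of these arrays. The family, the pathway lists and the rule for named genes (largest called rise and fall of a list per activation comparison, smallest p per genotype comparison) were chosen with earlier results of these data known. Per the labels' descriptions, a KO and a WT array of 1 title number also share a second number, read here as an experiment number. Deviations from group means correlated between native KO and WT arrays of numbers 1 to 3 at r = 0.58, 0.396 and 0.157, and these were taken as pairs. Between activated arrays r was high for number 1 (0.694) but not for numbers 2 and 3 (-0.0166 and -0.013). The activated arrays were not taken as pairs, though they share numbers in the same way, so the pairing was chosen from these data. With the number as a block in the activated arrays alone, 0 members and 0 of all genes were called between KO and WT cells (limma). The alternatives changed the scaling, filter, variance model, weights, pairing, row choice and arrays. A further pathway list is not reported here.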

Additional observations from a re-analysis of the deposited data

How the results depend on the processing

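Across the alternatives the activation calls of Cish, Socs2 and Socs3 in both genotypes, and of Socs1 in WT cells, kept their direction and side of the threshold; Socs1 in KO cells and Socs4 in KO cells are described above. No member was called between KO and WT cells, or for the interaction, under any alternative. The replicate block left 4 members called in each activation comparison and 0 in the others, with the title numbers and with the experiment numbers alike, and changed no member's call. Over all genes, the native KO against WT count of 0 became 1 with a filter on dim genes. It became 1 with trend and robust moderation and 2 with array weights. It was 0 to 10 without single arrays (10 without native KO array 2), and 14 with the replicate block in the native arrays alone. Over every row it was 2, counted in rows and not in genes. The activation counts of 4107 (WT) and 4002 (KO) genes became 6930 and 6932 with array weights. Over every row of the deposited values, named or not, 7687 (WT) and 7526 (KO) rows were called. These are counts of rows out of a larger total, so they cannot be set beside the counts of genes. For KO the count of genes became 2190 without both KO array 1 samples. The last fit and the blocks in the native or the activated arrays alone were chosen after seeing the data.

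Small uncalled differences changed sign; the cause was not tested. Leaving out single arrays moved KO minus WT in native cells from -0.081 to 0.099 for Cish, -0.013 to 0.11 for Socs2, -0.089 to 0.31 for Socs3, -0.25 to 0.13 for Socs4, -0.0500 to 0.19 for Socs6 and -0.14 to 0.0019 for Socs7. In activated cells the ranges were -0.35 to 0.47 (Cish), -0.15 to 0.16 (Socs1), -0.48 to 0.0047 (Socs2), -0.56 to 0.13 (Socs3), -0.093 to 0.13 (Socs4), -0.012 to 0.13 (Socs5), -0.32 to 0.13 (Socs6) and -0.16 to 0.12 (Socs7). The interaction ran from -0.33 to 0.49 (Cish), -0.25 to 0.062 (Socs1), -0.67 to 0.026 (Socs3), -0.0900 to 0.29 (Socs4), -0.39 to 0.068 (Socs6) and -0.11 to 0.18 (Socs7). Activation differences ran from -0.44 to 0.013 (Socs6, WT), -0.202 to 0.017 (Socs7, WT), -0.084 to 0.078 (Socs5, KO) and -0.18 to 0.103 (Socs7, KO). Quantile normalization turned Socs7 to 0.0997 in WT and 0.144 in KO cells on activation and Socs4 to 0.00801 in native KO minus WT. Median centring gave 0.038 for Socs7 (activation, KO) and -0.025 for Socs1 (activated KO minus WT). Array weights gave 0.026 for Socs7 (activation, KO), -0.011 for Cish and -0.077 for Socs1 (activated KO minus WT). Averaged rows gave -0.074 for Socs6 in native cells and 0.055 for its interaction. Without both KO array 1 samples the values were 0.089 for Socs7 (activation, KO), -0.013 for Socs2 (native), and -0.12, -0.049, -0.017 and 0.028 for Cish, Socs1, Socs4 and Socs7 (activated); the Cish interaction was -0.089. Signal over background limits the native Socs2 level, and the Socs3, Socs5 and Socs7 values of activated KO array 3.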
